A study of Homo sapiens with 8 samples.

Results

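The IRAK kinases and the adaptors around them were followed on 8 Agilent 2-colour arrays of human cancer cell lines. The probes were those of 10 gene names: IRAK1, IRAK2, IRAK3, IRAK4, MYD88, TRAF6, TAB1, TAB2, MAP3K7 and TOLLIP. These are 10 of 41810 gene names in the array annotation, and they had 15 of its 58201 probes, each spotted once. A probe is called measured on an array where the scanner software flagged either channel as well above background. Of these 15 probes, 11 were measured on all 8 arrays, 1 on some arrays and 3 on none. With those 11 probes, 9 of the 10 genes were measured on every array. The gene without a measured probe was IRAK3.

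Mock cells, which the labels give as not transfected, were read in Cy3, and cells of the same line transfected with Lipofectamine RNAiMAX were read in Cy5. A498 and 786-O, both renal cancer lines, were each given miR-139-5p (1 array a line) or miR-139-3p (1 array a line). MDA-MB-231, a breast cancer line, was given siRNA 1 (si-GINS1_1) or siRNA 2 (si-GINS1_2), both directed at GINS1, a subunit of the replicative helicase. HCT116, a colorectal cancer line, was given miR-490-5p (1 array) or miR-490-3p (1 array). The arrays of a miR-139 group differ in cell line and those of si-GINS1 differ in siRNA, so the spread in a group includes these differences. The mock had no control oligo, so the response to a given sequence and the response to transfection cannot be told apart. Neither can fewer RNA molecules per cell and a smaller share of cells that make them.

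Toll-like receptors and the receptors of the interleukin-1 family share a signalling route. The adaptor MyD88 binds the activated receptor and gathers IRAK4, which phosphorylates IRAK1 and IRAK2. These kinases engage TRAF6, a ubiquitin ligase, whose chains are bound by TAB2 and bring in TAK1, the kinase encoded by MAP3K7, with its partner TAB1. TAK1 then switches on the IκB kinases and the MAP kinases, which lead to NF-κB and AP-1. IRAK3, found mainly in myeloid cells, and TOLLIP, a ubiquitin-binding adaptor that holds IRAK1, restrain this route. The study followed IRAK1 as a target of miR-490-3p in colorectal cancer cells, and the question asked here is whether the other members of the complex moved with it.

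A miRNA guides silencing mainly through its seed, bases 2 to 8, which pairs with a match in the target transcript. The mature sequences of the 4 transfected strands, from RefSeq on GRCh38.p14, are printed because IRAK1 was followed with both strands of miR-490 and their seeds differ. The seed is in capitals. MIR490 lies on chromosome 7 and MIR139 on chromosome 11.
miR-490-3p: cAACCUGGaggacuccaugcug
miR-490-5p: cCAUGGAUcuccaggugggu
miR-139-5p: uCUACAGUgcacgugucuccagu
miR-139-3p: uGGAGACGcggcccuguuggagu
No seed was shared between any of these strands.

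The array reads an mRNA through 60-base probes. The deposited annotation places IRAK1 probe 1 at chrX:153276841-153276900 and IRAK1 probe 2 at chrX:153278023-153278082, on the minus strand of hg19, both assigned to NM_001569. Whether a probe is in coding or untranslated sequence was not looked up. Probe 2 is printed to show what was hybridized for IRAK1.
IRAK1 probe 2: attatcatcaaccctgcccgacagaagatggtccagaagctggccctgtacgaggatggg
The words that pair with the 4 seeds (CCAGGTT for miR-490-3p, ATCCATG for miR-490-5p, ACTGTAG for miR-139-5p and CGTCTCC for miR-139-3p) were searched for on the transcript strand of the probes alone. None of the 15 probes of the complex held any of them, beside 0.39%, 0.448%, 0.32% and 0.168% of all probes. The probes cover only 60 bases of each transcript, so this says nothing of the rest of the mRNA.

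In HCT116 given miR-490-3p, IRAK1 was the member with the lowest ratio of transfected over mock. The log2 ratio of IRAK1 probe 1 was -0.63 and that of probe 2 was -0.32. The size depends on how the ratio was made: the scanner software's own ratio gave -1.06 and -0.70, a normexp offset of 10 gave -0.88 and -0.55, and median centring gave -0.50 and -0.25. IRAK1 was picked by the study partly from this array, so its value here is a description and no independent evidence. The brightness of probe 1 above its local background was 124 in mock and 71.3 in transfected cells, and that of probe 2 was 52.7 in mock and 34.6 in transfected cells. Brightness, here and below, is not normalized between the dyes, so its change differs from that of the log2 ratio. Probe 1 stood at percentile 1.91 of the 28360 probes measured on that array and probe 2 at percentile 7.86. Each miR-490 strand had 1 array, so no spread is known and no test was made.

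The ratio of IRAK1 was below 0 with the other strand as well. With miR-490-5p the log2 ratio was -0.34 for probe 1, at percentile 9.01, and -0.21 for probe 2, at percentile 15.5. The miR-490-3p value less the miR-490-5p value was -0.29 for probe 1 and -0.11 for probe 2, at percentiles 11.2 and 28.5 of the same difference over 26885 probes. Both probes were thus below 0 with both strands and lower with miR-490-3p. By the scanner software's own ratio, probe 1 was at -0.50 and probe 2 at -0.47 with miR-490-5p, and the differences were -0.56 and -0.23. The median local background in Cy3 was 17 units on the miR-490-5p array and 14 on the 7 others, and its part in these values was not tested.

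No other member was as low as IRAK1 on the miR-490-3p array. MYD88, the adaptor that starts the complex, had a log2 ratio of 0.37, and TRAF6, the ubiquitin ligase below the kinases, had 0.26. TOLLIP probe 1 had 0.24, IRAK4 0.09 and IRAK2 0.03. MAP3K7 had 0.01, TAB1 probe 1 had -0.11, TAB2 probe 1 had 0.01 and TAB2 probe 2 had -0.19. The ratios of the 12 measured probes of the complex thus lay on both sides of 0, with 5 below it and a median of 0.01, equal to the median of 0.01 over all measured probes.

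Counted at a size of 0.5 log2 units, 1 of the 12 measured probes was at or below -0.5 (IRAK1 probe 1), beside 3.37% of all measured probes, and 0 of 12 were at or above 0.5, beside 3.64%. With miR-490-5p, 0 of 11 were at or below -0.5, beside 5.07%, and 0 of 11 at or above 0.5, beside 3.47%. For the difference between the strands the counts were 0 of 11 in either direction, beside 4.31% lower and 6.27% higher. By the ratio used here, no probe of the complex reached 1 log2 unit on either HCT116 array, where 0.924% (miR-490-3p) and 1.23% (miR-490-5p) of probes did. By the scanner software's own ratio IRAK1 probe 1 did, at -1.06 with miR-490-3p. These counts also depend on how the ratio was made. By the scanner software's own log ratio 4 probes passed a size of 0.5 with miR-490-3p, both IRAK1 probes below 0 and MYD88 (0.51) and TRAF6 (0.57) above it. By median centring, 3 passed: IRAK1 probe 1, MYD88 (0.54) and TOLLIP probe 1 (0.54).

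MYD88 was high with both strands. With miR-490-5p its log2 ratio was 0.45, at percentile 95.6, and with the 3p strand it was 0.37, at percentile 92.9. In brightness above background it went from 114 in mock to 185 on the miR-490-5p array and from 115 to 190 on the miR-490-3p array. IRAK1 and MYD88 thus lay on opposite sides of 0 on both arrays, at 1 array a strand.

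By the ratio used here, the strands differed most for TAB2 and TRAF6 among the members. TAB2, which reads ubiquitin chains for TAK1, had log2 ratios of 0.38 (probe 1) and 0.16 (probe 2) with miR-490-5p, against 0.01 and -0.19 with miR-490-3p. The difference of -0.37 and -0.35 was close to equal for both TAB2 probes, which lie on chromosome 6 at chr6:149732565-149732624 and chr6:149700594-149700653 of hg19. TRAF6 had -0.10 on the miR-490-5p array and 0.26 on the miR-490-3p array, a difference of 0.35. These differences stood at percentiles 7.9, 8.69 and 89.2 of all probes, each from 1 array a strand. By the scanner software's own ratio they were -0.43 and -0.62 for TAB2 probes 1 and 2 and 0.75 for TRAF6. IRAK1 probe 1, at -0.56 by that ratio, then differed more than TAB2 probe 1, and the TAB2 probes were less alike.

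**Figure D1:**
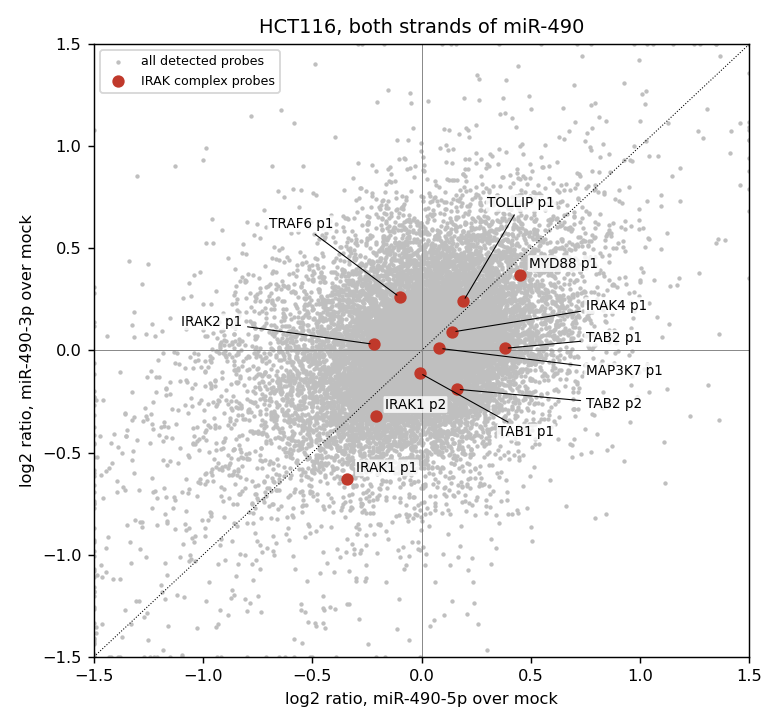
Log2 ratio of transfected over mock HCT116 cells for miR-490-5p (x axis) and miR-490-3p (y axis). Red points are the 11 probes of the complex measured on all arrays (p1 and p2 are probe 1 and probe 2), grey points are all probes measured on both arrays, with values past 1.5 drawn at 1.5, and the dotted line marks equal ratios. IRAK1 probe 1 is the lowest red point on both axes, at -0.34 and -0.63, and MYD88 the highest, at 0.45 and 0.37.

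Over all 8 arrays, IRAK1 probe 1 ranged from -0.63 to 0.64. With miR-139-5p its log2 ratio was -0.02 (A498) and -0.12 (786-O), and the miR-139-3p arrays gave -0.13 (A498) and -0.26 (786-O). In MDA-MB-231 it had 0.64 with siRNA 1 and -0.03 with siRNA 2. Probe 2 had 0.10 and -0.04 on the A498 arrays, -0.19 and -0.12 on those of 786-O, and 0.58 and -0.02 on those of MDA-MB-231. Both IRAK1 probes were thus lowest with miR-490-3p and highest with siRNA 1, and their Pearson r over the 8 arrays was 0.961, as a description of arrays that include 2 per line. The other members had r between -0.511 (IRAK4) and 0.564 (MAP3K7) with IRAK1 probe 1. Among 16452 genes measured on every array, the 3 most like it were DMWD (r of 0.986), NUP62CL (0.98) and ZNF740 (0.979). The highest r among so many genes over 8 arrays is high by selection, so these 3 say nothing of the complex.

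**Figure D2:**
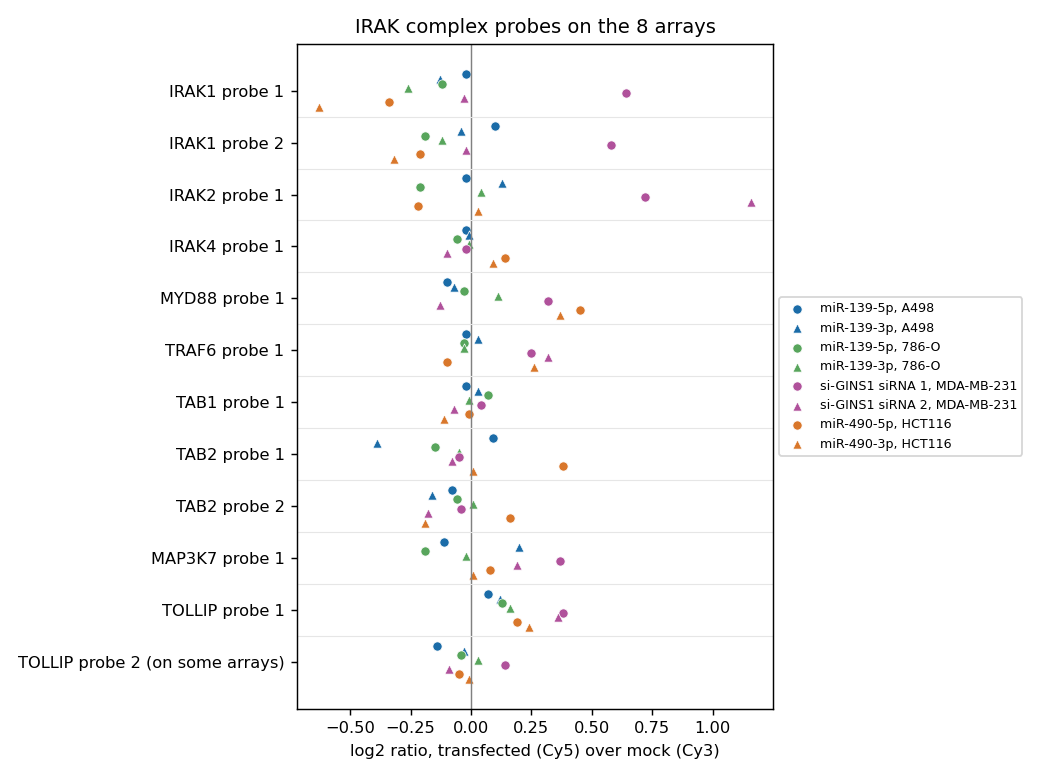
Log2 ratio of transfected over mock (x axis) for the 12 probes of the complex measured on at least 1 array (rows), with a point for each of the 8 arrays, coloured by cell line. IRAK1 runs from -0.63 with miR-490-3p to 0.64 with siRNA 1, IRAK2 stands at 0.72 and 1.16 with the siRNAs, and TOLLIP probe 1 lies above 0 on all 8 arrays.

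After siRNA against GINS1, IRAK2, TRAF6 and 1 of the TOLLIP probes rose in MDA-MB-231, by calls that did not hold in every setting. GINS1 itself had log2 ratios of -1.31 with siRNA 1 and -1.92 with siRNA 2, against -0.11 to 0.55 on the 6 other arrays, the direction the labels give. By limma's moderated test with Benjamini-Hochberg adjustment over all probes, 3 of the 12 probes of the complex tested were called at an adjusted p under 0.05, all higher, beside 6.95% of the 27806 probes tested in all (924 higher and 1009 lower). The median of the probes of the complex was 0.29 with siRNA 1 and -0.05 with siRNA 2, against 0.02 and 0.01 over all measured probes. The siRNAs thus did not give the complex as a whole a like shift.

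IRAK2, the kinase that keeps the response going alongside IRAK1, had the largest ratio of any member on any array. Its log2 ratio was 0.72 with siRNA 1 and 1.16 with siRNA 2, at percentiles 97.1 and 99.7. The brightness above background, not normalized between the dyes, went from 373 to 959 and from 408 to 1200. With siRNA 1, TAB2 probe 1 went from 1150 to 1710 at a log2 ratio of -0.05, so a rise in brightness alone shows no rise in ratio. The mean log2 ratio of IRAK2 was 0.94 (SD 0.31, SE 0.12, n = 2 arrays) and limma's adjusted p was 0.0252. Here and below, the SD is that of the siRNA arrays. The SE is limma's, from a spread shared with the miR-139 arrays of the renal lines, so it does not measure how far the siRNAs differ. On the other 6 arrays IRAK2 had log2 ratios of -0.02 and 0.13 (A498), -0.21 and 0.04 (786-O), and -0.22 and 0.03 (HCT116). No value there overlapped those of the siRNA arrays, but IRAK2 stands out here through its call on those same arrays. How many of all probes likewise do not overlap was not counted. The IRAK2 probe lies at chr3:10285302-10285361 of hg19 (NM_001570).

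TRAF6 had 0.25 with siRNA 1 and 0.32 with siRNA 2, a mean of 0.29 (SD 0.05, SE 0.05, n = 2 arrays) with limma's adjusted p of 0.0359. It was dim, with a brightness above background of 53 in mock and 97.8 with siRNA 1, and 63.2 and 104 with siRNA 2. TRAF6 reached 0.26 on the miR-490-3p array too, within the range of the siRNA arrays. TOLLIP probe 1 had 0.38 and 0.36, a mean of 0.37 (SD 0.01, SE 0.04, n = 2 arrays) with limma's adjusted p of 0.023. TOLLIP probe 1 was above 0 on all 8 arrays, at 0.07 to 0.24 on the 6 others. Since no dyes were swapped, a probe that takes up the dyes unequally would also stand on 1 side on every array. Less the mean of the other lines' arrays, TOLLIP probe 1 was at 0.22 and its adjusted p was 0.105 in limma. TOLLIP probe 2, measured on some arrays, was at 0.14 and -0.09, a mean of 0.03 for which limma gave an adjusted p of 0.845, so the probes of this gene did not give the same call.

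These calls were close to the threshold. With each array's ratio taken less the mean of the other lines' arrays, 0 of the 12 probes were called and IRAK2 stood at 0.98 with limma's adjusted p of 0.0501. From the siRNA arrays alone, 0 were called as well, and IRAK2 had limma's adjusted p of 0.523. The means of IRAK2, TRAF6 and TOLLIP probe 1 were above 0 in every setting run.

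IRAK1 parted the siRNAs. Both probes were at 0.64 and 0.58 with siRNA 1, at percentiles 96 and 95.1, and at -0.03 and -0.02 with siRNA 2, at percentiles 41.4 and 44.2. In brightness above background, probe 1 went from 294 in mock to 711 with siRNA 1 and from 255 to 296 with siRNA 2. The mean of probe 1 was 0.30 (SD 0.47, SE 0.16, n = 2 arrays) and limma's adjusted p was 0.312. MYD88 was split the same way, at 0.32 with siRNA 1 and -0.13 with siRNA 2, with a mean of 0.10 (SE 0.12) and limma's adjusted p of 0.656. Each siRNA had 1 array, so the difference between them was not tested.

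MAP3K7 was at 0.37 with siRNA 1 and 0.19 with siRNA 2, a mean of 0.28 (SE 0.08) that missed the threshold with limma's adjusted p of 0.11. IRAK4, TAB1 probe 1 and both measured TAB2 probes lay between -0.18 and 0.04 on the siRNA arrays. Counted by size, 3 of 12 probes were at or above 0.5 with siRNA 1 (both IRAK1 probes and IRAK2), beside 7.14% of all measured probes, and 1 of 12 with siRNA 2 (IRAK2), beside 4.2%. At or below -0.5 there were 0 of 12 on either array, beside 6.63% and 5.66%.

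**Figure D3:**
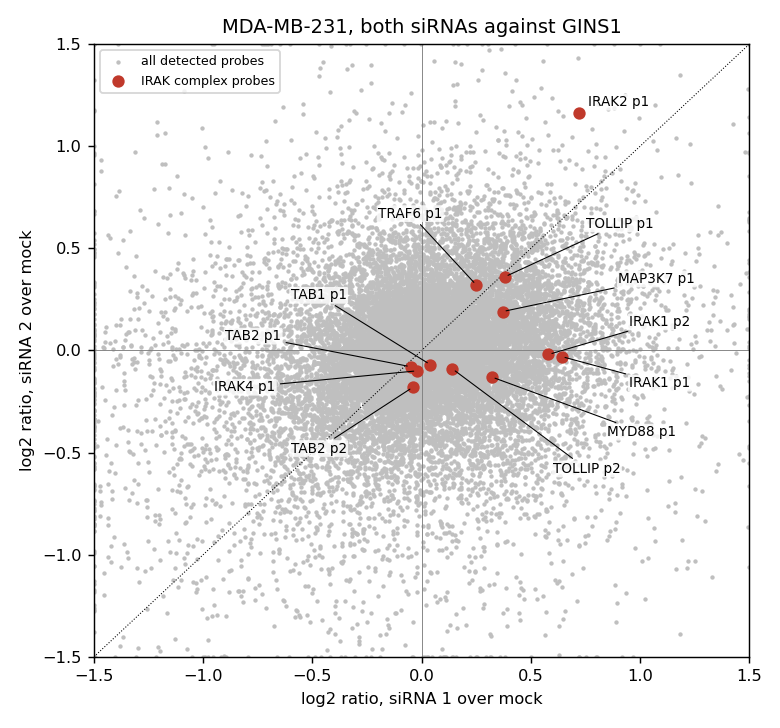
Log2 ratio of transfected over mock MDA-MB-231 cells for siRNA 1 (x axis) and siRNA 2 (y axis) against GINS1. Red points are the 12 probes of the complex measured on these arrays, grey points all probes measured, with values past 1.5 drawn at 1.5, and the dotted line marks equal ratios. IRAK2 stands at 0.72 and 1.16, TRAF6, TOLLIP probe 1 and MAP3K7 are above 0 on both axes, and the IRAK1 probes are near 0 on the axis of siRNA 2.

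With miR-139-5p and miR-139-3p in the renal lines, no member was called. By limma, 0 of the 11 probes of the complex tested passed with miR-139-5p, beside 0.0129% of 23292 probes, and 0 of 11 with miR-139-3p, beside 0% of 22817. At an unadjusted p under 0.05 the counts were 0 of 11 and 1 of 11, where all probes gave 591 and 1014. The 1 probe was TOLLIP probe 1 with miR-139-3p, at 0.12 in A498 and 0.16 in 786-O (unadjusted p of 0.0398 and adjusted p of 1 in limma). IRAK1 probe 1 had a mean of -0.07 (SE 0.16) over the miR-139-5p arrays and of -0.19 (SE 0.16) over the miR-139-3p arrays, both with an adjusted p of 1 in limma.

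The single lowest value among the members here was TAB2 probe 1, at -0.39 with miR-139-3p in A498. In 786-O it was -0.05, and TAB2 probe 2 had -0.16 in A498 and 0.01 in 786-O, so the value was not shared by the lines or, in size, by the probes. For the contrast of the strands, 0 of 11 probes were called by limma, beside 0% of 22183 probes. At an unadjusted p under 0.05, 0 of these 11 and 150 of all probes passed. The largest difference among the members was that of MAP3K7, 0.24 higher with miR-139-3p (SE 0.12, unadjusted p of 0.0939 and adjusted p of 1 in limma), with log2 ratios of -0.11 and -0.19 on the miR-139-5p arrays and 0.20 and -0.02 on the miR-139-3p arrays.

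The mock channel gives the level of the complex in the lines before any transfection. Levels are log2 Cy3 intensity after quantile normalization over the 8 arrays and are compared within a probe only. The pair of arrays of a line may carry 1 mock extract, so their gap may hold technical spread only, and the levels are a description with no test. The largest gap for a measured member was 0.21, in 786-O.

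IRAK2 varied most between the lines. Its level was 9.50 and 9.41 on the A498 arrays, 8.26 and 8.34 in MDA-MB-231, 7.87 and 7.67 in 786-O and 7.04 and 6.90 in HCT116, a range of 2.48 or 5.59-fold from A498 to HCT116. No neighbours in that order overlapped. The order was the same when each array was scaled to its 75th percentile. MYD88 followed with a range of 1.44, from 7.66 and 7.71 in MDA-MB-231 through 7.22 and 7.16 in A498 and 7.11 and 7.13 in HCT116 to 6.25 and 6.23 in 786-O. A498 and HCT116 changed places under the other scaling.

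After scaling between arrays, IRAK1 was lowest in HCT116, the line given miR-490. Probe 1 had 8.14 and 8.15 in A498, 7.99 and 7.80 in MDA-MB-231, 7.75 and 7.83 in 786-O and 7.21 and 7.20 in HCT116. MDA-MB-231 and 786-O overlapped, HCT116 was below all others, and probe 2 was lowest in HCT116 too, at 6.56 and 6.53. HCT116 stayed lowest for both probes under the other scaling, while the top place of probe 1 passed from A498 to MDA-MB-231. Before any scaling, mock brightness above background was higher in HCT116 than in 786-O. It was 129 and 124 against 115 and 113 for probe 1, and 56.7 and 52.7 against 38.4 and 36.2 for probe 2. The lowest place of HCT116 thus depends on the scaling.

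MAP3K7 was higher in 786-O (8.18 and 8.02) and HCT116 (8.09 and 8.01) than in MDA-MB-231 (7.52 and 7.57) and A498 (7.39 and 7.29), and the first pair overlapped. TAB2 probe 1 had mean levels of 9.68 to 10.25 over the lines and TOLLIP probe 1 of 9.18 to 9.81, and the order of the lines changed with the scaling for both. TRAF6 was between 5.98 (A498) and 6.54 (MDA-MB-231), TAB1 probe 1 between 6.10 and 6.31 and IRAK4 between 5.96 and 6.04, all near the lower end of the scale. The IRAK3 probe, TAB1 probe 2 and TAB2 probe 3 were not well above background on any array, and their levels of 5.71 to 5.75 have no order.

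**Figure D4:**
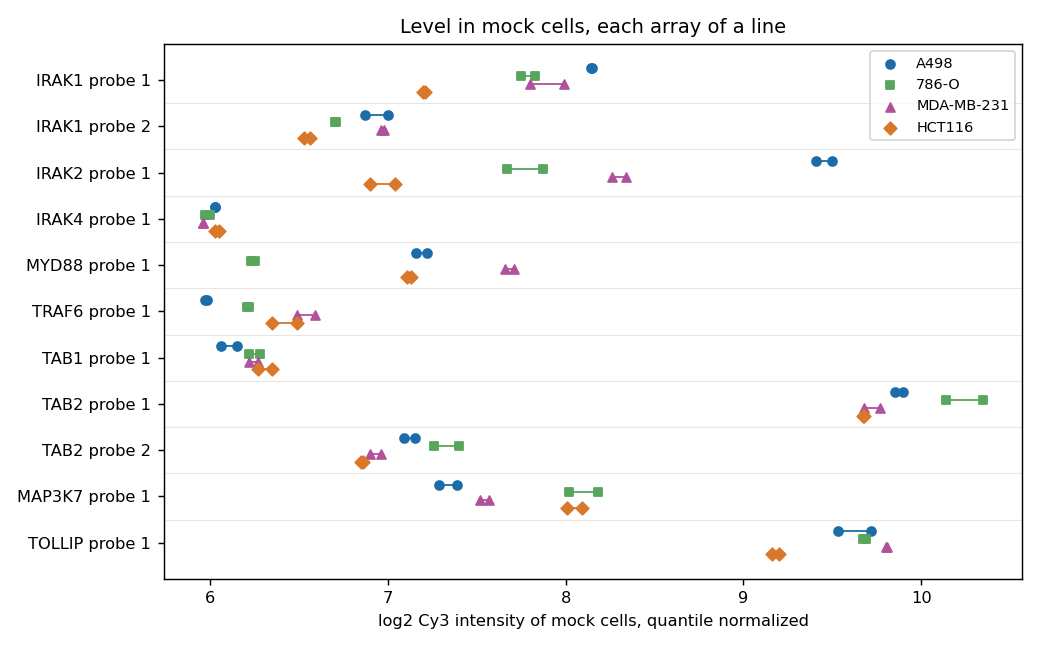
Log2 Cy3 intensity of mock cells after quantile normalization (x axis) for the 11 probes of the complex measured on all arrays (rows). Each line has a point per array, joined by a bar. IRAK2 spreads from 6.90 in HCT116 to 9.50 in A498, IRAK1 is lowest in HCT116 for both probes, and IRAK4 differs little between the lines.

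The renal lines had the highest levels of both renal markers, and no breast marker was read. PAX8, a renal lineage factor, was at 8.13 in A498 and 8.05 in 786-O, against 6.71 in MDA-MB-231 and 6.31 in HCT116. PAX2, another renal factor, was at 8.36 and 7.80 in the renal lines and 6.88 in HCT116, and was not well above background in MDA-MB-231. EPCAM and CDH1, epithelial genes, were highest in HCT116 at 11.79 and 9.16, and CDH1 was not well above background in A498 or 786-O. VIM, a mesenchymal gene, was at 14.65 to 15.10 in the other lines and 6.77 in HCT116. VIL1, an intestinal marker, was not well above background in any line, HCT116 included.

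The rest of the route was read from a list of 68 genes from ligands to transcription factors, of which 67 were on the array, each by its brightest probe. After siRNA against GINS1, 8 of the 56 tested were called higher by limma and 4 lower, beside 6.95% of all 27806 probes tested (924 higher and 1009 lower), with a median log2 ratio of 0.10 against 0.01 over all probes. The counts by role are small and are to be read against that same share. The list was chosen with earlier results of these data known. Its siRNA calls were not rerun under the other settings, under some of which the calls in the complex did not hold. Of the receptors and their partners, 2 of 13 were called higher and 2 lower. CD14, the co-receptor that hands lipopolysaccharide to TLR4, fell by 1.19 (-1.18 and -1.20, adjusted p of 0.0107 in limma). SIGIRR, a decoy-like receptor that damps the route, was at -1.32 and -0.63 (adjusted p of 0.044 in limma). TLR2, a receptor for bacterial lipoproteins, was at 0.95 and 0.58 (adjusted p of 0.025 in limma), and IL18RAP, a chain of the interleukin-18 receptor, at 0.35 and 0.32. IL18RAP was above 0 on all 8 arrays, at 0.08 to 0.33 on the 6 others, as TOLLIP probe 1 was, so its call is open to the same unequal take-up of the dyes, whose part was not tested.

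Of 3 ligands tested only IL1RN, the antagonist of the interleukin-1 receptor, was called, at -0.75 and -0.70 (adjusted p of 0.0114 in limma). TICAM1, the adaptor TRIF of TLR3 and TLR4, was the 1 of 3 adaptors called, at 0.66 and 0.65 (adjusted p of 0.0231 in limma).

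Among the listed inhibitors, 3 of 6 were called higher. These were TNFAIP3, the ubiquitin-editing enzyme A20 that is itself an NF-κB target, at 0.50 and 0.75, OTUD7B, a deubiquitinase, at 0.36 and 0.30, and TRAF1, at 0.49 and 0.37. Of 8 transcription factors and their inhibitor, RELA at 0.73 and 0.44 and NFKB2 at 0.52 and 0.32, both NF-κB subunits, were higher. MAP2K6, a kinase of p38, was the 1 of 7 MAP kinase genes called, at -0.31 and -0.40, and 0 of 6 genes at the level of TAK1 and the IκB kinases and 0 of 10 ubiquitin chain genes were called. Several of these genes have a second probe, and the median over probes was smaller for IL1RN (-0.35), SIGIRR (-0.50), IL18RAP (0.14), TICAM1 (0.43) and RELA (0.42).

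With miR-139-5p and miR-139-3p, 0 of the 51 listed genes tested were called by limma with either strand, beside 0.0129% and 0% of all probes. With miR-490-3p, 4 of 50 were at or below -0.5 (3.37% of all measured probes) and 3 at or above 0.5 (3.64%), with a median of 0.09 against 0.01 over all probes. With miR-490-5p the counts were 1 and 3 of 51, beside 5.07% and 3.47%. The 1 listed gene past 1 log2 unit was RBCK1, a subunit of the complex that builds linear ubiquitin chains, which had -1.72 on the miR-490-5p array and -1.62 on the miR-490-3p array in log2 ratio. Over its 3 probes the medians were -1.34 and -1.33, and on the 6 other arrays its brightest probe was between -0.37 and 0.02. The HCT116 arrays share the line and may share the mock extract, so RBCK1 on both is not a repeat of the same result.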

How the data were processed

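Total RNA was extracted with Trizol and labelled with Cy3 (mock) and Cy5 (transfected) on 8 arrays of 1 slide, with no dye swap. Per the file headers, the authors used Agilent Feature Extraction 11.5.1.1. The deposited intensity columns hold each spot's mean brightness and median local background, not normalized, and the deposited log10 ratio of Cy5 over Cy3 is the scanner software's own, equal to the series value table (largest difference 0). It served as an alternative.

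Here background was corrected with normexp (offset 50, which pulls dim ratios toward 0) and log2 ratios were normalized by loess in limma 3.58.1 under R 4.3.3. Of 62976 spots, 2075 were controls and 0 were saturated, and spots flagged as outliers (112 to 194 an array) were dropped. Between 24983 and 29688 probes per array were well above background, and the number of arrays limits the precision. Groups of 2 arrays were tested against 0 in 1 fit of 8 arrays with 5 coefficients and 3 residual degrees of freedom, with Benjamini-Hochberg adjustment over all probes tested, using probes flagged well above background in either channel on each of the group's arrays. The SE and p-values rest on a spread estimated for each probe over all groups of 2 arrays, those of the renal lines included, and moderated by limma. They do not measure the spread within 1 group alone, and they leave out that of the mock. The script was tested on simulated data. Groups of 1 array have no test, and sizes of 0.5 and 1 log2 unit were used. Figures and sequence searches used Python 3.11.15, pandas 2.3.3, numpy 2.4.6 and matplotlib 3.10.9.

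The genes of the complex and the list of 68 pathway genes were chosen with earlier results of these data known. Pathway genes were named where limma called them or where they reached 1 log2 unit on a miR-490 array or in the difference of the strands. Positions of probes were copied from the array's annotation (hg19).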

Additional observations from a re-analysis of the deposited data

How the results depend on the processing

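The counts of 0 members called with miR-139-5p, miR-139-3p and their contrast were 0 under every alternative run. The arrays of the miR-139 strands share cell lines, and the deviations of the strands within a line had a correlation of 0.0753 over 22183 probes, so the lines were not treated as pairs. With the cell line as replicate block the contrast had 0 members called too. After siRNA against GINS1 the count of 3 became 1 with a normexp offset of 10 and 1 without background correction (IRAK2 in both). It became 0 by the scanner log ratio, 0 less the mean of the other lines' arrays, 0 from the siRNA arrays alone, 5 with the mock as a random block and 0 when eBayes used a trended, robust prior, the last chosen after seeing the data. The random block added IRAK1 probe 1 (adjusted p of 0.0352 in limma) and MAP3K7 (adjusted p of 0.0183 in limma). Leaving out 1 siRNA gave 3 to 7: without siRNA 2 the count was 7, with both IRAK1 probes, MYD88 and MAP3K7 added, and the lone array is then assumed to vary like the other groups. For IRAK2 the adjusted p in limma was 0.0957 on the scanner's ratios and 0.0561 under the trended prior. The cause was not tested.

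With miR-490-3p, the count past 0.5 of 1 became 2 with an offset of 10, 3 by median centring and 4 by the scanner log ratio. IRAK1 probe 1 was then -0.88, -0.50 and -1.06, and -0.85 without background correction. IRAK1 probe 2 was -0.55 with an offset of 10, -0.50 without background correction and -0.70 by the scanner log ratio. With miR-490-5p the count of 0 became 1 with an offset of 10, 1 without background correction, 2 by median centring, 2 by the scanner log ratio and 1 less the mean of the other lines' arrays. For the difference of the strands, 0 became 1 with an offset of 10, 1 without background correction and 3 by the scanner log ratio. Those 3 were IRAK1 probe 1 (-0.56), TAB2 probe 2 (-0.62) and TRAF6 (0.75). Probes of the complex whose mock level differed by 1 log2 unit or more between lines numbered 2, and 3 when arrays were scaled to their 75th percentile. The share of all probes past this limit was not counted, so these counts show no trait of the complex. IRAK2, TRAF6 and TOLLIP probe 1, called after siRNA with the settings used here, kept their sign in every setting. Both IRAK1 probes and MYD88 did not. Their means were 0.64, 0.58 and 0.32 without siRNA 2, and -0.03, -0.02 and -0.13 without siRNA 1. Dim probes limit the rest: IRAK4, TAB1 probe 1 and TRAF6 lie near background. IRAK1 probe 2 was also dim in HCT116, at a brightness above background of 52.7 in mock and 34.6 with miR-490-3p.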
